A study of Caenorhabditis elegans with 6 samples.

Results

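CELE repeats are short interspersed repeats of the nematode Caenorhabditis elegans. The rows analysed were all repeat rows of a table of raw counts whose name starts with CELE and a digit and ends in a copy number. There were 15992 such rows, each a single genomic copy, in 14 families, among 99774 rows in all and beside 37933 copies of 165 other repeat families. Copies were summed by family, and copies with 60 or more raw counts over the 6 libraries were also listed singly, which gave 348 copies.

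The libraries were made from RNA of whole larvae at L1, the first larval stage, hatched overnight without food from bleached populations. There were 3 libraries of strain BCN6101, which carries div-1(or148) and is labelled as EU548 with a pdaf-21::mCherry reporter, and 3 libraries of strain BCN1050, which carries the same pdaf-21::mCherry reporter and which the labels call N2 wild type, so both groups carry the reporter and the wild type is not free of it. The product of div-1 belongs to DNA polymerase alpha-primase, the enzyme that lays down the first stretch of new DNA strands. The series is titled as a study of replication defects and loss of chromatin repression, and the question asked of the repeats is whether their RNA differed between the mutant and the wild type. Libraries held inserts of 18 to 36 bases, and reads this short can match more than 1 copy of a repeat family, so the assignment to single copies is uncertain.

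Many CELE families are regarded as remains of nonautonomous DNA transposons, which carry inverted terminal repeats and no transposase of their own. In C. elegans, repeats are concentrated on the outer parts of the autosomes, where histone H3 lysine 9 methylation by MET-2 and SET-25 and small RNA pathways keep them silent. A copy inside a gene can also be copied into RNA as part of that gene's transcript. No sequence or coordinates of single copies were used here.

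The summed CELE level overlapped between the groups with the scaling used here, and did not overlap with upper-quartile factors (ratio 1.11, two-sided exact permutation p = 0.1) or without mutant library 2 (ratio 1.10). The 3 mutant libraries held 25403, 19876 and 24104 CELE counts, of 26392800, 25051167 and 26268345 counts in all, against 19943, 21674 and 20354 CELE counts in the wild-type libraries, of 26068976, 27632878 and 25331475. After scaling to effective library sizes from the gene rows, the summed CELE level was 908, 819 and 908 CPM (gene-scaled counts, per 1000000) in the mutant, against 817, 827 and 820 CPM in the wild type. Mutant libraries 1 and 3 lay above the wild type, and mutant library 2 lay among its libraries. The means were 878 ± 51.6 CPM in the mutant, against 821 ± 5.02 CPM in the wild type (SD, n = 3 each), a ratio of 1.07 (two-sided exact permutation p = 0.3, where 3 against 3 libraries cannot go below 0.1). Wild-type library 1 stood apart in some gene rows, such as acs-2, an acyl-CoA synthetase gene of the response to fasting, which was at 7.83, 5.44 and 5.99 CPM in the mutant, against 878, 1.95 and 2.50 CPM in the wild type. Without wild-type library 1 the CELE ratio was 1.06. In whole larvae, fewer cells of a type and less RNA per cell cannot be told apart.

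Within the repeats, most counts outside CELE fell on the large-subunit rRNA repeat, which held 65.7% of all repeat counts. CELE rows took 11.3%, 8.97% and 13.6% of the repeat counts in the mutant, against 10.4%, 8.98% and 9.33% in the wild type, with overlap between the groups (two-sided exact permutation p = 0.4). With the rRNA family left out, CELE rows took 29.0%, 29.8% and 28.3% of the repeat counts in the mutant, against 30.8%, 31.8% and 31.3% in the wild type. The mutant libraries were then all lower (two-sided exact permutation p = 0.1, the smallest possible). The remaining repeats outside CELE and rRNA stood at 2148 ± 196 CPM in the mutant, against 1803 ± 33.3 CPM in the wild type (SD, n = 3 each), a ratio of 1.19 with no overlap (two-sided exact permutation p = 0.1).

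None of the 14 CELE families was called higher or lower. In the fit of 16444 rows, genes together with the sums of all repeat families, calls made up 0.894% of the rows in the direction of a higher and 0.0122% in that of a lower mutant level (edgeR quasi-likelihood, with p adjusted after Benjamini-Hochberg and held under 0.05). For the CELE families the adjusted p ranged from 0.221 to 0.940, and 1 family, CELE14A, had an unadjusted p under 0.05, where 8.37% of all rows were higher and 2.45% lower at that level. DESeq2 also called 0 of the 14 families, with an adjusted p of 0.0978 for CELE14A. Positive log2 fold changes were found for 13 of 14 families (12 to 14 under the other scalings), where 46.4% of all rows were positive, with a median of 0.13, beside a median of -0.03 over all rows of the fit. Among the other repeat families tested, 117 of 141 were positive, with a median of 0.23, and 1 was called higher.

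CELE14A had the lowest p of the CELE families. Its summed copies stood at 34.6, 28.1 and 32.3 CPM in the mutant, against 23.3, 22.8 and 23.3 CPM in the wild type, with every mutant library above every wild-type library. The means were 31.7 ± 3.29 CPM in the mutant, against 23.1 ± 0.281 CPM in the wild type (SD, n = 3 each; log2 fold change 0.45, SE 0.131; edgeR adjusted p = 0.221). CELE46A and CELE46B also did not overlap between the groups. CELE46A stood at 78.6, 74.7 and 85.7 CPM in the mutant, against 72.8, 68.3 and 68.2 CPM in the wild type (log2 fold change 0.19; edgeR adjusted p = 0.628). CELE46B stood at 51.3, 49.4 and 54.3 CPM in the mutant, against 46.7, 48.3 and 45.1 CPM in the wild type (log2 fold change 0.15; edgeR adjusted p = 0.706). Over all rows of the fit, 10.3% were higher in the mutant without overlap and 7.66% lower.

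The other large families overlapped between the groups. CELE2, the family with most counts, stood at 189, 180 and 197 CPM in the mutant, against 174, 182 and 174 CPM in the wild type. CELE14B stood at 186, 170 and 188 CPM in the mutant, against 175, 178 and 171 CPM in the wild type. In both, mutant libraries 1 and 3 were the highest and mutant library 2 was within or below the range of the wild type. CELE1 had 3327, 2424 and 2849 raw counts in the mutant, against 2660, 2621 and 2706 raw counts in the wild type, or 109 ± 9.64 CPM in the mutant, against 106 ± 5.20 CPM in the wild type (SD, n = 3 each). CELE4 stood at 73.7, 63.3 and 67.9 CPM in the mutant, against 62.6, 66.3 and 69.4 CPM in the wild type. In both, mutant library 1 was the highest, and the groups overlapped. CELE11 stood at 55.6, 44.8 and 52.7 CPM in the mutant, against 41.7, 46.8 and 52.9 CPM in the wild type. CELE42 stood at 43.4, 36.7 and 44.3 CPM in the mutant, against 41.3, 40.6 and 36.9 CPM in the wild type. CELE7 was the only family with a negative value, at 36.4, 38.7 and 40.7 CPM in the mutant, against 38.8, 39.5 and 41.5 CPM in the wild type; its log2 fold change of -0.05 became 0.04 when scaled by gene library size only, 0.01 with upper-quartile factors and 0.17 in copies under 60 counts. The 4 smaller families, CELE12A, CELE45, CELE6 and CELE12B, had log2 fold changes between 0.19 and 0.37, and their groups overlapped. Copy lengths were not used here, so these levels compare libraries within a family and not families with each other.

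**Figure D1:**
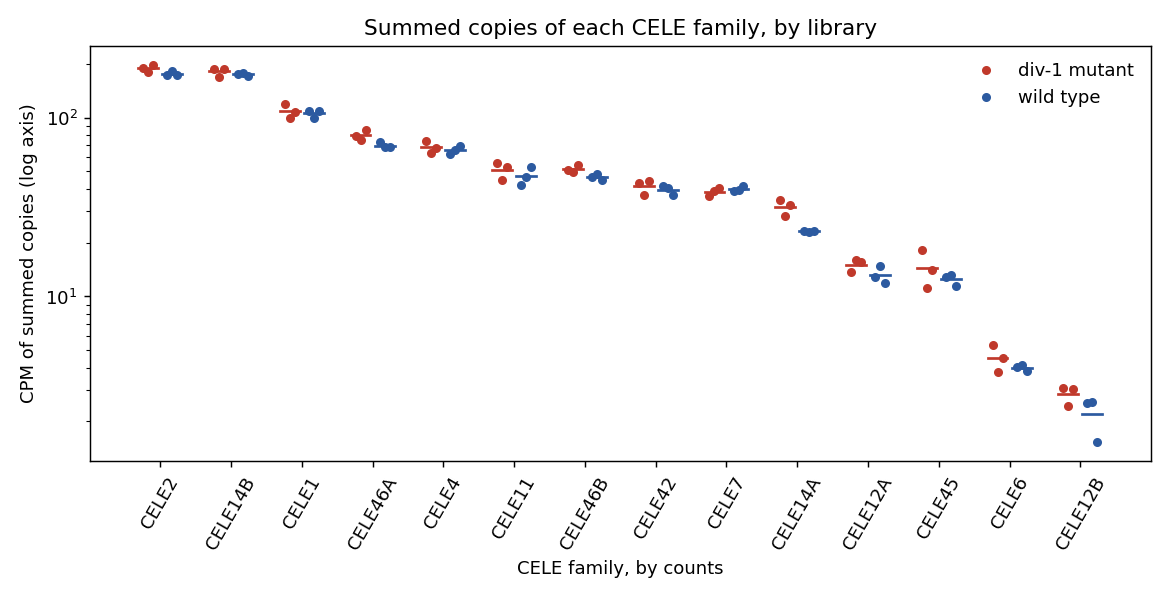
CPM of the summed copies of each CELE family on a log axis, with the 3 div-1 mutant libraries in red left of the 3 wild-type libraries in blue, a point per library and a line at the mean. The groups lie close together in all 14 families, and the clearest gap is that of CELE14A, at 31.7 ± 3.29 CPM in the mutant, against 23.1 ± 0.281 CPM in the wild type.

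Most of the pooled CELE counts lay on few copies, which did not hold for every family. Of the 15992 copies, 8895 had no count in any library, which still allows up to 3 counts each, and 7097, or 44.4%, had at least 1 count. The 348 listed copies are 2.18% of all copies and held 64.9% of the CELE counts. By family they held from 17.3% of the counts in CELE12B, 33.8% in CELE6 and 46.7% in CELE46A up to 74.8% in CELE11. The listed copies came from every family, with 69 of CELE14B, 65 of CELE2, 49 of CELE1, 35 of CELE4, 32 of CELE46A and 26 of CELE46B, and from 1 to 16 in each of the others. The limit of 60 counts falls in a continuous range, with 6 copies at exactly 60 counts and 7 at 59. The copy with most counts of a family held from 7.04% of the family's counts in CELE2 to 36.3% in CELE12A, where it was CELE12A_373.

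More CELE copies were detected in the mutant. Copies with at least 1 count numbered 3567, 3288 and 3929 in the mutant libraries, against 3161, 3162 and 3223 in the wild-type libraries, with no overlap (two-sided exact permutation p = 0.1, the smallest possible). Mutant library 2 had fewer CELE counts than each wild-type library and still more detected copies. Thinned to 19876 CELE counts per library, the expected numbers were 3269, 3288 and 3600 in the mutant, against 3156, 3046 and 3189 in the wild type, again without overlap (two-sided exact permutation p = 0.1). For the other repeat copies outside rRNA, thinned to 44592 counts, they were 6204, 6466 and 6756 in the mutant, against 6092, 6119 and 6277 in the wild type, with overlap (two-sided exact permutation p = 0.2). Both means were higher in the mutant, with a ratio of 1.08 for the thinned CELE copies and 1.05 for these other copies. Copies counted in all 3 mutant libraries and in no wild-type library numbered 72 of 15992, and 38 showed the opposite pattern. Among the 37933 other repeat copies the same 2 numbers were 156 and 67. Neither these counts nor the numbers of detected copies are given here for all rows, so both are a description and not a trait particular to CELE. The copies under 60 counts summed to 347, 277 and 342 CPM in the mutant, against 283, 268 and 269 CPM in the wild type, with mutant library 2 inside the range of the wild type.

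At the level of single copies, 4 of the 336 listed copies that could be tested were called, all higher in the mutant, and none was called lower. This was 1.19% of the listed copies, where 0.948% of all 17401 rows of that fit were called higher and 0.0172% lower, so the share lay near that of the whole table. The called copies were CELE2_700, CELE14A_108, CELE11_183 and CELE46A_419, each of another family. All 4 reached 60 counts through the mutant libraries, with 511, 207, 61 and 98 counts there, against 20, 2, 7 and 3 counts in the wild-type libraries, so the listing rule was met in the group where they are high and the count of calls is a description. At an unadjusted p under 0.05, 22 listed copies were higher and 3 lower, or 6.55% and 0.893%, where the whole table had 8.41% and 2.36%. The other 12 listed copies, with 60 to 76 counts, did not pass the expression filter, and 15 copies under 60 counts passed it, of which none was called.

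CELE2_700 had 154, 157 and 200 counts in the mutant libraries, against 6, 4 and 10 counts in the wild-type libraries. Every mutant library was far above every wild-type library. The level was 6.50 ± 1.01 CPM in the mutant, against 0.267 ± 0.127 CPM in the wild type (SD, n = 3 each; log2 fold change 4.59, SE 0.344; edgeR adjusted p = 0.00173). The ratio of the summed counts, scaled by library size, was 24.5, with a 95% exact interval of 15.7 to 40.4 that covers counting error only. CELE2_700 held 3.43% of the CELE2 counts in the mutant, against 0.150% in the wild type, and its difference was 49.1% of the net difference of the whole family. That net difference was small and not called (log2 fold change 0.099, edgeR adjusted p = 0.815), with overlapping groups. Of the 63 listed CELE2 copies tested, 29 had a positive log2 fold change.

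CELE14A_108 was almost without counts in the wild type. It had 59, 79 and 69 counts in the mutant libraries, against 0, 2 and 0 counts in the wild-type libraries, or 2.65 ± 0.574 CPM in the mutant, against 0.0254 ± 0.0441 CPM in the wild type (SD, n = 3 each). The groups lay far apart, with an edgeR adjusted p of 0.00404. With 2 counts in the wild type the ratio of summed counts was 99.1, with a 95% exact interval of 27.1 to 824 for counting error. It held 8.26% of the CELE14A counts in the mutant, against 0.115% in the wild type, which made up 29.9% of the family's difference. The difference of the CELE14A family was itself not called (edgeR adjusted p = 0.221). Without the 4 called copies, a choice made after their values were seen, the log2 fold change of CELE14A was 0.33 (edgeR adjusted p = 0.457).

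CELE11_183 and CELE46A_419 had fewer counts. CELE11_183 had 20, 18 and 23 counts in the mutant libraries, against 2, 4 and 1 counts in the wild-type libraries (log2 fold change 3.00, SE 0.455; edgeR adjusted p = 0.0287). CELE46A_419 had 35, 16 and 47 counts in the mutant libraries, against 3, 0 and 0 counts in the wild-type libraries (edgeR adjusted p = 0.0451). The groups did not overlap for either copy. The ratios of summed counts were 8.34 for CELE11_183, with a 95% exact interval of 3.81 to 21.6, and 31.3 for CELE46A_419, with an interval of 10.4 to 154. Both calls were lost in each of the 6 fits that left out a library, with edgeR adjusted p between 0.0572 and 0.152 for CELE11_183 and between 0.0507 and 0.176 for CELE46A_419. Calls over all rows fell from 168 in the main single-row fit to between 44 and 133 in those 6 fits. The log2 fold changes in those fits were 2.66 to 3.56 for CELE11_183 and 4.22 to 8.002 for CELE46A_419, the highest of them without wild-type library 1, which holds all 3 wild-type counts of CELE46A_419. CELE2_700 and CELE14A_108 were past the threshold in all of these fits, and leaving out a library gave an adjusted p of at most 0.0217 for CELE2_700 and 0.0315 for CELE14A_108. These fits reuse the libraries in which the copies were called. They show only how far the calls depend on a single library and are not separate support.

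**Figure D2:**
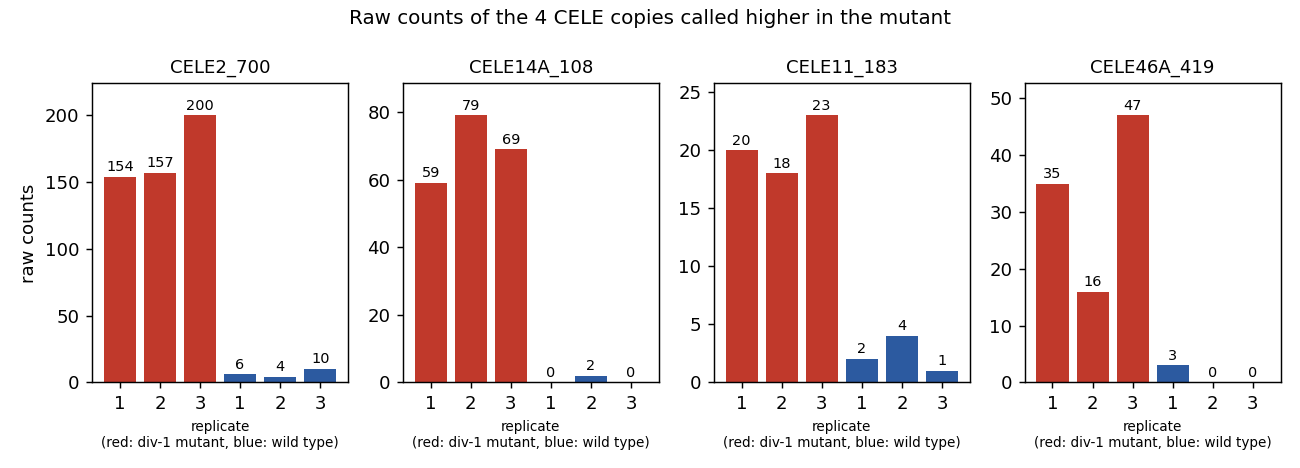
Raw counts per library (vertical axes from 0, own scale for each copy) of the 4 CELE copies called higher, with div-1 mutant libraries in red left of wild-type libraries in blue. CELE2_700 had 154 to 200 counts in the mutant, against 4 to 10 in the wild type, and CELE14A_108 had 59 to 79 in the mutant, against 0 to 2 in the wild type.

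The row order of the table places these copies. Neighbouring gene rows ran in the order of their starts in the WBcel235 annotation for 99.5% of 38855 pairs, so a copy row between 2 gene rows most likely starts between the starts of those genes. Since no source used here names the build behind the table, copies are given no coordinates. Their neighbours, chromosome region and any gene around them were read from row order and WBcel235 gene positions. CELE2_700 and CELE14A_108 were in the same neighbourhood on chromosome I. CELE2_700 stood between vps-25, a gene of the ESCRT-II complex of membrane sorting, and toe-4, and started inside the annotated span of vps-25. CELE14A_108 stood 3 rows further, between toe-4 and uba-2, which encodes a subunit of the SUMO-activating enzyme.

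Among the other rows of that neighbourhood, vps-25 and CeRep5_29 were also called higher. vps-25 had 2336, 2311 and 2459 counts in the mutant, against 1273, 1387 and 1259 counts in the wild type (log2 fold change 0.80; edgeR adjusted p = 0.0295). toe-4 had 4837, 4024 and 4477 counts in the mutant, against 2495, 2848 and 2922 counts in the wild type (log2 fold change 0.63; edgeR adjusted p = 0.0703). CeRep5_29, a copy of another repeat family on the far side of uba-2, had 30, 61 and 47 counts in the mutant and 0 counts in each wild-type library (edgeR adjusted p = 0.0187). By contrast, CELE7_172, listed 2 rows further on, had 26, 22 and 36 counts in the mutant, against 22, 34 and 23 counts in the wild type (edgeR adjusted p = 0.982), and uba-2 had 780, 545 and 649 counts in the mutant, against 511, 570 and 603 counts in the wild type (log2 fold change 0.16; edgeR adjusted p = 0.746). The next copies by number, CELE2_699, CELE2_701 and CELE14A_107, had at most 11 counts in any library.

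CELE11_183 was placed on chromosome V inside the annotated span of fos-1, which encodes a transcription factor of the AP-1 type. fos-1 itself stood at 117 ± 23.4 CPM in the mutant, against 81.8 ± 11.8 CPM in the wild type (SD, n = 3 each; log2 fold change 0.51, edgeR adjusted p = 0.359). C10F3.15, the row before fos-1, had 69, 38 and 56 counts in the mutant, against 3, 4 and 3 counts in the wild type (edgeR adjusted p = 0.00322). F29G9.14, 2 rows after the copy, had 22, 16 and 13 counts in the mutant, against 2, 3 and 4 counts in the wild type (edgeR adjusted p = 0.0511). CELE2_980, a listed copy that stood before C10F3.15 and did not pass the filter, had 20, 8 and 26 counts in the mutant and 4 counts in each wild-type library. rpt-2, a proteasome subunit gene at the end of this stretch, stood at 57.2 ± 2.24 CPM in the mutant, against 56.5 ± 3.42 CPM in the wild type (SD, n = 3 each; edgeR adjusted p = 0.970).

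CELE46A_419 was also placed on chromosome V, in a stretch of the table where most rows had few or no counts. The row after it, CEMUDR1_110, a copy of another repeat family, had 39, 19 and 55 counts in the mutant, against 3, 0 and 0 counts in the wild type (edgeR adjusted p = 0.0363). The 2 rows had nearly the same counts in every library, and whether the same reads were counted for both was not tested. F56A4.3, 5 rows before, had 36, 45 and 43 counts in the mutant, against 0, 0 and 1 counts in the wild type (edgeR adjusted p = 0.00404). The repeat rows CELE46B_234 and CELE46B_235 of the same stretch had no counts. These neighbours were chosen after the called copies were known.

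**Figure D3:**
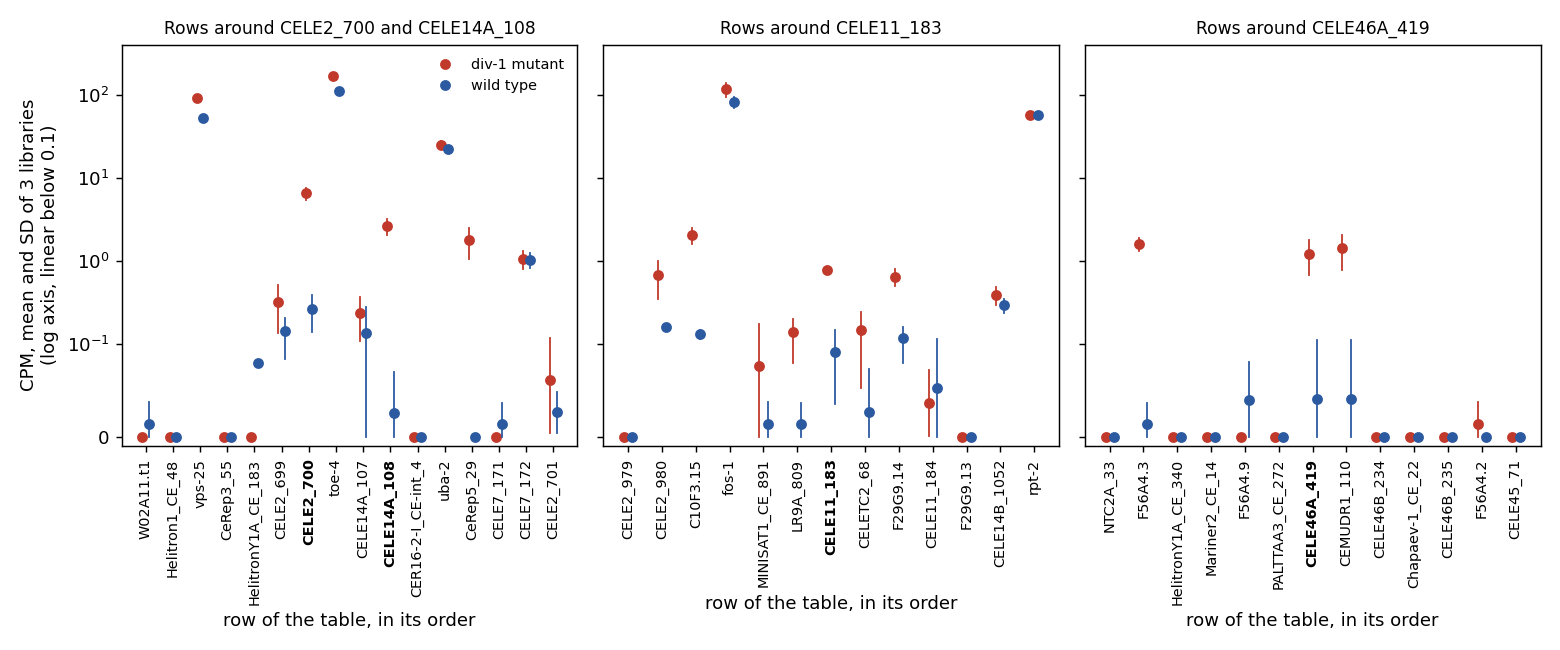
Mean CPM with SD of the 3 div-1 mutant libraries (red, left) and the 3 wild-type libraries (blue, right) for the rows around the called copies, whose names are in bold, in the order of the table; the vertical axis is logarithmic and linear below 0.1. Next to the called copies, C10F3.15, CeRep5_29, CEMUDR1_110 and F56A4.3 are separated in the same way, while uba-2 and rpt-2 lie at similar levels in both groups.

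The listed copies had fold changes spread around 0. Of the 336 tested, 320 were within 2-fold, 14 were at least 2-fold higher and 2 at least 2-fold lower, where 4.56% and 0.425% of all rows of the fit were. The log2 fold change was positive in 180, or 53.6%, and negative in 156, where 46.9% of all rows were positive, with a median of 0.03 and quartiles of -0.20 and 0.33, beside a median of -0.02 over all rows and 0.15 over the other repeat copies tested. The positive count was 167 when every row set the scaling and 222 when only the gene library size did, and the median of the listed copies was then -0.002 and 0.12. The groups did not overlap for 33 copies that were higher and 17 that were lower, or 9.82% and 5.06%, where all rows had 10.3% and 7.52%. Median log2 fold changes by family, for families with at least 5 tested copies, ranged from -0.17 in CELE7 to 0.37 in CELE12A.

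**Figure D4:**
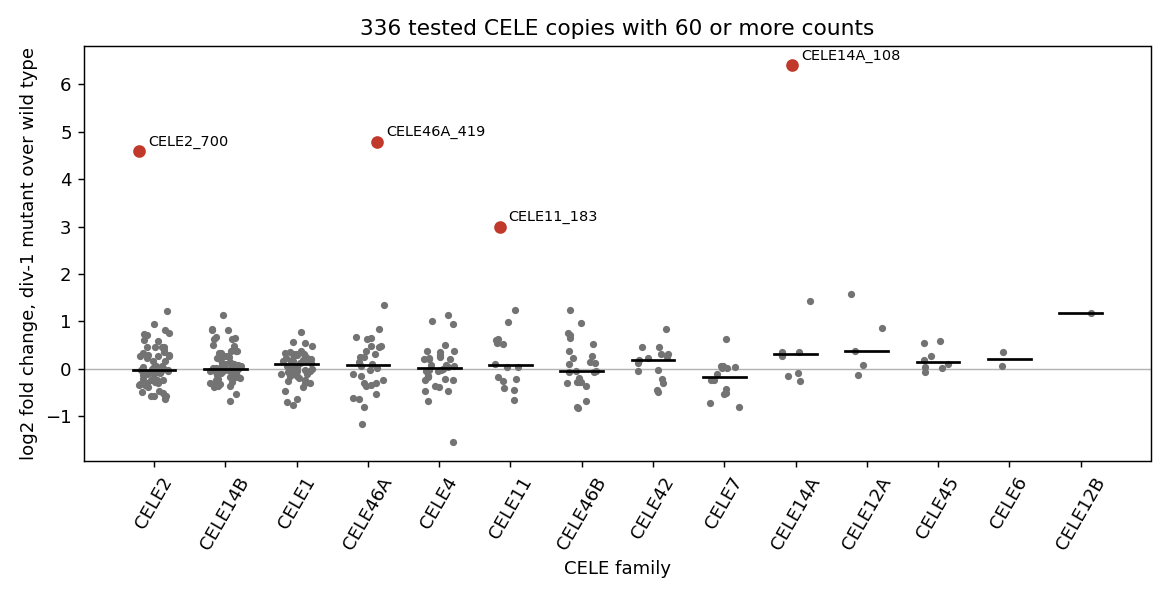
Log2 fold change, div-1 mutant over wild type, of the 336 tested CELE copies with 60 or more counts, by family, with a point per copy, the 4 called copies in red and a black line at the family's median. Most copies lie within 2-fold, 320 of 336, and the 4 called copies lie between 3.00 and 6.41.

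None of the copies with most counts was called. The 30 copies with most counts, from 645 to 2182, held 24.0% of the CELE counts; their edgeR adjusted p ranged from 0.419 to 0.998, and 7 had a positive log2 fold change, between -0.44 and 0.37 over the 30. CELE14B_291 had 437, 320 and 340 counts in the mutant, against 270, 380 and 435 counts in the wild type. CELE2_2536 had 228, 352 and 352 counts in the mutant, against 236, 484 and 335 counts in the wild type. CELE2_3142, which started inside unc-64, the syntaxin gene of synaptic vesicle fusion, had 242, 272 and 274 counts in the mutant, against 271, 278 and 230 counts in the wild type. In all of these the groups overlapped.

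CELE2_1543, next after egl-43, had 314, 193 and 214 counts in the mutant, against 212, 253 and 286 counts in the wild type. CELE14B_2374, between the posterior Hox genes php-3 and nob-1, had 283, 211 and 209 counts in the mutant, against 275, 249 and 226 counts in the wild type. CELE1_390 had 347, 194 and 242 counts in the mutant, against 235, 206 and 220 counts in the wild type. Mutant library 1 had the most raw counts for each of these copies; in CPM it was the highest only for CELE1_390, and all groups overlapped. CELE4_188 had 285, 187 and 253 counts in the mutant, against 193, 244 and 239 counts in the wild type. CELE11_41, between the innexin genes inx-16 and inx-17, had 225, 203 and 223 counts in the mutant, against 186, 244 and 272 counts in the wild type. CELE14B_2238 had 171, 195 and 206 counts in the mutant, against 235, 251 and 155 counts in the wild type. These groups also overlapped.

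CELE14A_415, inside max-2, a kinase gene of axon guidance, had 271, 187 and 205 counts in the mutant, against 155, 142 and 192 counts in the wild type (log2 fold change 0.37; edgeR adjusted p = 0.588). It held 27.1% of the CELE14A counts. CELE42_70 was among the copies without overlap, with 156, 156 and 181 counts in the mutant, against 232, 217 and 194 counts in the wild type (log2 fold change -0.44; edgeR adjusted p = 0.419). CELE14B_153 was the other of the 30 without overlap, also with the lower levels in the mutant, at 3.66 ± 0.576 CPM in the mutant, against 4.72 ± 0.864 CPM in the wild type (SD, n = 3 each; edgeR adjusted p = 0.620). The remaining copies of the 30 were CELE11_148, CELE46A_250, CELE2_3143, CELE7_92, CELE2_2926, CELE2_1790, CELE14B_1742, CELE14B_727, CELE12A_373, CELE2_514, CELE1_1096, CELE46A_1017, CELE14B_317, CELE2_1274, CELE1_1470, CELE4_829, CELE1_849 and CELE14B_2340, and all had overlapping groups.

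Some of the listed copies could be placed inside a protein-coding gene by row order. A start inside an annotated gene could be read for 55 of the 348 listed copies, and for 52 of them both copy and gene were tested. Where several protein-coding genes spanned the place, the gene with most counts was taken. For most other copies the order does not settle it. Across these 52 pairs, which share libraries and may share reads, Pearson's r between the log2 fold changes of copy and gene was 0.615 and Spearman's rho 0.542, and without the called copies, over 50 pairs, 0.543 and 0.491. The median absolute difference between copy and gene was 0.17 in those 50 pairs, and copy and gene had the same sign in 32 of them. The 5 listed copies inside unc-64, CELE2_3142, CELE2_3143, CELE4_829, CELE1_1689 and CELE1_1692, had log2 fold changes between -0.155 and 0.173, beside 0.07 for unc-64. The called copies had larger values than their genes, a difference not tested, with 4.59 for CELE2_700 beside 0.80 for vps-25 and 3.00 for CELE11_183 beside 0.51 for fos-1.

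**Figure D5:**
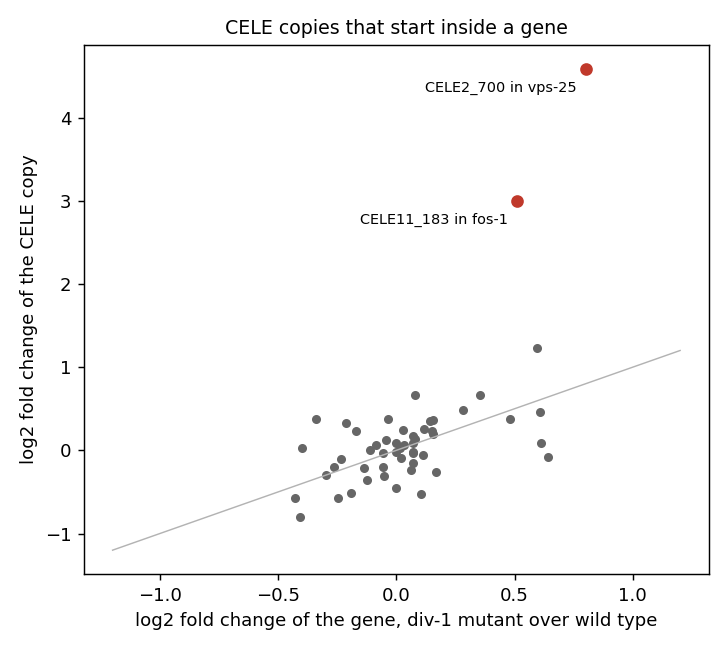
Log2 fold change, div-1 mutant over wild type, of 52 listed CELE copies (vertical) against that of the protein-coding gene inside which the copy starts by row order (horizontal), with the called copies in red and a grey line where both are equal. Without the called copies, the median absolute difference between copy and gene is 0.17, with the same sign in 32 of 50 pairs. CELE2_700 and CELE11_183 lie 3.79 and 2.49 above the line.

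By position, most CELE copies and most listed copies were on chromosome arms, taken as the outer 30% at each end of an autosome. Of the 15992 copies, 10285 were placed on arms, 3481 in centres and 2174 on the X chromosome, and 250, 71 and 26 of these were listed. The 4 called copies were all on arms, where 64.3% of all CELE copies were placed. Among them, CELE2_700 and CELE14A_108 stood in the same neighbourhood, so this count is a description. The summed level on arms was 665, 583 and 650 CPM in the mutant, against 595, 590 and 598 CPM in the wild type (ratio 1.06, two-sided exact permutation p = 0.4), and in centres 183, 174 and 193 CPM in the mutant, against 166, 181 and 172 CPM in the wild type (ratio 1.06, two-sided exact permutation p = 0.2). On the X chromosome it was 58.6, 59.7 and 63.5 CPM in the mutant, against 54.03, 55.3 and 48.4 CPM in the wild type, with no overlap (ratio 1.15, two-sided exact permutation p = 0.1, the smallest possible). No level of genes or other repeats on the X chromosome is given here, so this is a description.

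Of the genes that silence repeats, 1 was called lower and none higher. Of 33 names listed, 30 had a tested row, and 1 of the 30 was called, mut-16, a scaffold protein of the perinuclear Mutator foci, which amplify small interfering RNAs. The list was chosen with earlier results of these data known, so the count of calls is a description. mut-16 stood at 8.33, 4.65 and 6.55 CPM in the mutant, against 53.4, 51.8 and 50.5 CPM in the wild type (log2 fold change -2.99, SE 0.216; edgeR adjusted p = 0.00199), where 0.0122% of the rows of that fit were called lower. mut-14, a helicase gene of the same pathway, had the next lowest p, at 6.21 ± 0.716 CPM in the mutant, against 8.60 ± 1.78 CPM in the wild type (SD, n = 3 each; edgeR adjusted p = 0.478). The median of the 30 was -0.04 on the log2 scale, beside -0.03 over all genes tested. Of the 30, 8 were positive, where 46.4% of all rows of that fit were. The value was 0.02 for met-2 and -0.04 for set-25. Every mutant library had both the or148 allele and the low mut-16 level, so the allele and mut-16 cannot be told apart for any difference in the repeats.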

How the data were processed

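The authors deposited whole-number counts, not normalised, for genes, repeat copies and construct parts. The submitters' processing notes name TopHat2 2.1.0 for no stated role, and likewise featureCounts 1.5.0 and DESeq2 1.8.1. For the build, annotation, strand setting and reads that map to several places, the record is: not given in the sources used here. Groups and replicate numbers come from the sample titles; the labels call the replicates biological, and p-values measure the spread between these libraries. Library totals ran from 25051167 to 27632878 counts. Gene rows set library sizes and TMM factors (0.950 to 1.08).

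edgeR 4.0.16 in R 4.3.3 was run with its default expression filter by group and a robust quasi-likelihood fit on group, two-sided, once on genes plus the sums of all repeat families (16444 rows) and once on single rows (17401). P-values were adjusted over all rows of each fit, with a threshold of 0.05; the SE is the log2 fold change divided by the root of the F statistic. The common biological coefficient of variation was 0.224 in the single-row fit. DESeq2 1.42.0 was an alternative. The test was checked on simulated data. Intervals cover counting error only.

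Named are the 14 families, the 30 copies with most counts and any called copy; neighbours and a few other copies were chosen after their values were seen. Members and lists were chosen with earlier results of these data known. arle-14, hrde-1 and rde-8 had no row under these names, which does not show that these genes lacked a row under another name.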

Additional observations from a re-analysis of the deposited data

How the results depend on the processing

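No CELE family was called in any of the alternatives: 4 other scalings, 2 other filters, each library left out, the replicate block, DESeq2, sums without each family's largest copy and sums of copies under 60 counts; nor in sums without the 4 called copies, added after seeing the data. The median log2 fold change of all rows of the single-row fit was between -0.058 and 0.066 over the scalings. The sign turned, in families that were never called, for CELE7 (0.0379 with gene library size only, 0.00694 with upper-quartile factors, 0.169 in copies under 60 counts), for CELE1 with scaling from every row (-0.000481), and, with a library left out, for CELE1 (from -0.0354 to 0.0871; negative without mutant replicate 1 or wild-type replicate 2) and CELE4 (from -0.0124 to 0.0929; negative without mutant replicate 1).

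Of listed copies, 4 were called under all 4 other scalings, under the stricter filter and among copies with 30 or more counts, and these were the same copies. Over all rows, those scalings called from 164 to 242 and the stricter filter called 176. DESeq2 called 5 of 336 listed copies, the 4 and CELE11_412, and 578 of all 17401 rows, where the main fit called 168 rows. Without a filter 7 of 348 listed copies were called, the 4 with CELE11_412, CELE14A_537 and CELE2_980, and 727 of all 48254 rows. At 120 or more counts 2 were called, since the other 2 called copies have fewer. With each library left out in turn, 2 were called in every fit, and from 44 to 133 of all rows. The titles do not say whether equal replicate numbers pair the samples, and the deposited column names carry partly other numbers. Libraries with the same number in the titles had deviations correlated at -0.249, 0.576 and -0.402, which cannot decide whether samples were paired. With replicate number as a block, 2 copies and 68 of all 17401 rows were called. The edgeR adjusted p was then 0.0986 for CELE11_183 and 0.0831 for CELE46A_419. All of these sets held CELE2_700 and CELE14A_108, and all reuse the libraries in which these copies were called.

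The summed CELE ratio of 1.07 became 1.14 with gene library size only and 1.18 in copies under 60 counts. It ran from 1.05 to 1.10 with a library left out. The groups, which overlap at 1.07, did not overlap at 1.10 without mutant replicate 2 nor at 1.11 with upper-quartile factors (two-sided exact permutation p = 0.1, the smallest possible, for both). The difference in CELE share of repeat counts, 1.70 percentage points, ran from 0.542 to 2.85 with a library left out and became -2.25 without the rRNA family; the cause was not tested.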

Other observations

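A copy of the family of CELE11_183 was placed inside the partner gene of fos-1. CELE11_412, placed by row order inside jun-1, which encodes the other transcription factor type of AP-1, had 107, 53 and 73 counts in the mutant libraries and 23, 38 and 33 counts in the wild-type libraries, with no overlap. Its log2 fold change was 1.23 with an SE of 0.302 (edgeR adjusted p = 0.133), beside 0.60 for jun-1. DESeq2 called CELE11_412, as it did 578 of all 17401 rows. The choice of this copy followed its value.

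Among the repeat copies outside CELE, 6 of 751 tested were called higher and 1 lower by edgeR, or 0.799% and 0.133%. The 1 called lower, Tc1_8, a copy of the transposon Tc1, had 0, 0 and 1 counts in the mutant libraries and 30, 21 and 17 counts in the wild-type libraries (edgeR adjusted p = 0.0131). The largest counts among those called higher were those of Mariner5_CE_48, with 1740, 1200 and 1886 counts in the mutant libraries and 422, 451 and 369 counts in the wild-type libraries (edgeR adjusted p = 0.00286).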
